A study of Mus musculus with 2 samples.

Results

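The genes described are 10 neuropeptide precursor genes, *Npy*, *Penk*, *Cartpt*, *Gal*, *Adm*, *Nmb*, *Tac1*, *Vip*, *Calca* and *Pdyn*, chosen by symbol, out of 55536 annotated genes in the tables. Each symbol matched 1 gene in both kinds of table. They were measured in adrenal glands of 4-day-old male mice of the strain B6CASTF1/J, the F1 hybrid of C57BL/6J and CAST/EiJ, in 1 group of 2 libraries with no second condition and no treatment in the labels. The libraries have different biosample labels and male numbers but share 1 donor label and a description that repeats 1 of those numbers. Whether the glands came from different animals is therefore not certain, and the spread between them may not be one between animals. Total RNA (300 ng per library) was reduced in ribosomal RNA and prepared with spike-ins and a directional kit. The libraries held 32231301 and 30292851 expected counts on genes. Levels are given in TPM, which divides reads by transcript length and scales each library to a fixed total, so that genes can be compared.

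Neuropeptides are cut from longer precursor proteins in the granules of the regulated secretory pathway. Convertases cut at pairs of basic residues, a carboxypeptidase trims these, and an amidating enzyme turns a C-terminal glycine into an amide where one is present. Chromaffin cells of the adrenal medulla, which make adrenaline and noradrenaline, store such peptides with the catecholamines and release them together when the splanchnic nerve fires. Whole glands were sequenced, so the tables do not place a transcript in the medulla, and fewer cells of a type and less RNA per cell cannot be told apart. The 12 chromaffin cell markers checked were all at 1 TPM or more, with a median of 132 TPM. The 7 cortex markers and the 6 endothelial markers were too, with medians of 827 and 37.6 TPM.

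*Npy* stood far above the other precursors, and *Penk*, *Cartpt* and *Adm* formed a middle group. *Gal*, *Nmb* and *Tac1* were low, and *Vip*, *Pdyn* and *Calca* were near the limit of detection. At a mean of 1 TPM or more there were 6 of the 10 genes, beside 60.4% of the 22028 protein-coding genes. The median of the 10 genes was 2.26 TPM and that of all protein-coding genes 3.35 TPM. *Npy* took 85.9% of the summed TPM of the 10 genes in replicate 1 and 84.0% in replicate 2. In the order *Npy*, *Penk*, *Cartpt*, *Adm*, *Gal*, *Nmb*, *Tac1*, *Vip*, each gene lay in the gene table below the one before it without overlap of the 2 libraries. *Nmb* and *Tac1* were close in replicate 1, at 0.70 and 0.61 TPM from 14 and 21 counts. *Tac1* and *Vip* had 8 and 7 counts in replicate 2. Their order is therefore less certain than that of the genes above them. The values of *Vip*, *Pdyn* and *Calca* overlapped, so their order is not resolved. These steps are a description and were not tested.

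**Figure D1:**
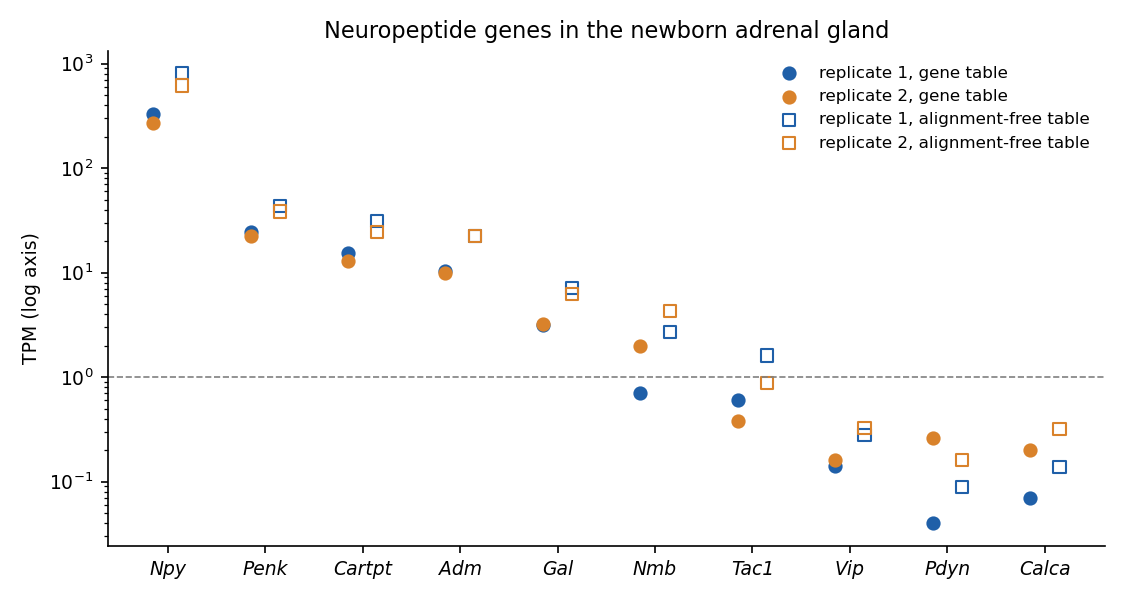
TPM of each neuropeptide gene on a log axis, with 1 point per library and table; filled circles are the gene table, open squares the alignment-free table, and the dashed line marks 1 TPM. *Npy* lies at 333 and 269 TPM in the gene table and above all the others in both tables.

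*Npy* (ENSMUSG00000029819.6, mm10 chromosome 6, 49822710 to 49829507) encodes neuropeptide Y, a vasoconstrictor peptide stored with catecholamines. Replicate 1 held 333 TPM from 5149 counts and replicate 2 held 269 TPM from 3749 counts, a mean of 301 ± 45.3 TPM (SD, n = 2). Replicate 1 was the higher in both tables. The gene ranked 138th among 22028 protein-coding genes. Its TPM was 152% and 142% of that of *Th*, whose enzyme, tyrosine hydroxylase, sets the pace of catecholamine production, in replicates 1 and 2. *Npy* has a single annotated transcript of 566 bases, and the tables differ in the effective length by which they divide its reads. This was 467 bases in the gene table against 241 bases (replicate 1) and 243 bases (replicate 2) in the alignment-free one, which listed *Npy* at 810 and 618 TPM from fewer counts, 4267 and 3141. This is 2.37 times the level of the gene table, where the median over 13270 protein-coding genes at 1 TPM or more was 1.86 times. Over the 10 genes this ratio ran from 0.838 in *Pdyn* to 2.62 in *Nmb*. The stretch that codes for the mature peptide of 36 residues is shown because *Npy* had the highest level of the set. It runs from exon 2 into exon 3 between positions 49823682 and 49827501 on the plus strand, and the capitals mark the codons for the glycine and the 2 basic residues at which the peptide is cut and amidated.
Npy-201: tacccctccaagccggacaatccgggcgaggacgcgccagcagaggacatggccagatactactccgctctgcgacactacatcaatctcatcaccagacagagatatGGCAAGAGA

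*Penk* and *Pdyn* encode the 2 opioid precursors of the set. *Penk* (ENSMUSG00000045573.9, chromosome 4, 4133531 to 4138819) makes proenkephalin, the source of Met-enkephalin and Leu-enkephalin. Its level was 24.2 TPM (973 counts) in replicate 1 and 22.3 TPM (823 counts) in replicate 2, or 11.1% and 11.8% of the TPM of *Th*. The libraries were close, and *Penk* was the second highest gene of the set in each. The antisense gene A830012C17Rik overlaps it over 499 bases and stood at 0.33 and 0.32 TPM. *Pdyn* (ENSMUSG00000027400.11, chromosome 2, 129686565 to 129699844) makes prodynorphin, the source of the dynorphins. It had 0.04 and 0.26 TPM, from 3 and 6 counts. The exact 95% Poisson intervals of these counts were 0.619 to 8.77 and 2.20 to 13.1, which overlap. All such intervals and limits cover counting error only, and not variation between animals or preparations. The reads also carry no molecular identifiers in the tables. The newborn glands therefore held proenkephalin message at a clear level and prodynorphin message at or near the 3 counts that the depth allows to be missed, which is 0.0931 CPM in replicate 1 and 0.0990 CPM in replicate 2.

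The coding sequences of *Penk* and *Pdyn*, the opioid precursors of the set, were scanned in frame for enkephalin copies. The other genes of the set were not scanned for them. *Penk* held 7 copies, 6 of Met-enkephalin and 1 of Leu-enkephalin, while *Pdyn* held 3 of Leu-enkephalin. All 7 copies in *Penk* were preceded by 2 codons for basic residues and 5 were also followed by 2. The 7 copies were written in 6 different ways at the level of DNA, so the repeats are of the peptide rather than of 1 fixed sequence. Copies are shown 5′ to 3′ on the coding strand, which is the minus strand, with the enkephalin codons in capitals and the flanking codons in lower case. All lie in coding sequence of the last exon, exon 2 of Penk-201 and exon 4 of Pdyn-201. Copies 1 and 2 of *Penk* share the basic codons between them. Of the copies in *Penk*, those printed are the adjoining pair, the Leu-enkephalin copy and 2 that have a non-basic codon after them.
Penk copy 1, Met-enkephalin, chr4:4134328-4134354: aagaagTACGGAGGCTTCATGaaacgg
Penk copy 2, Met-enkephalin, chr4:4134307-4134333: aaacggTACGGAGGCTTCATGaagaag
Penk copy 4, Met-enkephalin, chr4:4134067-4134093: aagaggTATGGGGGCTTCATGagaagc
Penk copy 6, Leu-enkephalin, chr4:4133935-4133961: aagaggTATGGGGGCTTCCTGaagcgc
Penk copy 7, Met-enkephalin, chr4:4133842-4133868: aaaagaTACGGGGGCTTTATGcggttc
Pdyn copy 1, Leu-enkephalin, chr2:129688232-129688258: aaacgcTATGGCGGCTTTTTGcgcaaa
Pdyn copy 3, Leu-enkephalin, chr2:129688067-129688093: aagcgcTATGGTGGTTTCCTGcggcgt

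*Cartpt* (ENSMUSG00000021647.7, chromosome 13, 99898489 to 99901091) encodes the CART prepropeptide, the source of the cocaine- and amphetamine-regulated transcript peptides. Its level was 15.4 TPM (421 counts) in replicate 1 and 12.8 TPM (317 counts) in replicate 2, or 7.02% and 6.73% of the TPM of *Th*. Replicate 1 was the higher, as for *Npy*. Its annotated transcripts differ in the precursor they encode. Cartpt-201 has 129 codons and Cartpt-202 has 116, since Cartpt-201 holds 39 further bases in frame at the start of exon 2, chr13:99900041-99900079 on the minus strand. These 13 codons are printed in capitals because they are what separates the long from the short precursor.
Cartpt-201: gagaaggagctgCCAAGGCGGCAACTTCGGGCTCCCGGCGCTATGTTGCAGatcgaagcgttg
Cartpt-202: gagaaggagctgatcgaagcgttg

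The tables disagreed on which *Cartpt* transcript was the main one. In the alignment-based table the long form, Cartpt-201, took 75.9% of the gene's TPM in replicate 1 and 75.0% in replicate 2. In the alignment-free table it took 46.6% and 47.2%. The replicates lay within 1 percentage point of each other in each table, so the gap between tables was larger than the spread between libraries. The transcripts also differ in length, 827 and 1238 bases, mostly before the start codon, and which table is nearer to the true share was not tested. Both forms were present in both libraries by either table.

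*Adm* and *Calca* belong to the calcitonin family. *Adm* (ENSMUSG00000030790.15, chromosome 7, 110627661 to 110629820) encodes adrenomedullin, a vasodilator first isolated from a chromaffin cell tumour and made by many cell types, endothelium among them. Its level was 10.3 TPM (431 counts) in replicate 1 and 9.92 TPM (366 counts) in replicate 2. The libraries differed little, and *Adm* stood below *Cartpt* in each. The antisense gene Gm28863, which covers *Adm*, had 0 counts in both. *Calca* (ENSMUSG00000030669.13, chromosome 7, 114631478 to 114636357) encodes calcitonin or, by alternative splicing, the calcitonin gene-related peptide CGRP. It had 0.07 and 0.20 TPM, from 2 and 3 counts, with exact 95% Poisson intervals of 0.242 to 7.22 and 0.619 to 8.77 counts. No ratio and no split between its 7 annotated transcripts can be given from so few reads. *Calca* is also a gene of sensory neurons, and the 6 sensory neuron markers were all below 1 TPM. The highest of them, *Avil*, had 13 counts in replicate 1 and 12 in replicate 2. *Scn11a* had 4 and 4 counts, *Scn10a* 3 and 0, *Trpv1* 1 and 3, *Calcb* 0 and 1, and *Mrgprd* 1 and 0.

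*Gal*, *Nmb*, *Tac1* and *Vip* were low. *Gal* (ENSMUSG00000024907.7, chromosome 19, 3409915 to 3414544), the gene of galanin, stood at 3.15 TPM (71 counts) in replicate 1 and 3.23 TPM (66 counts) in replicate 2. Its spread was 1.77% of its mean in the gene table, and it was less even in the alignment-free table, at 7.14 and 6.26 TPM. *Nmb* (ENSMUSG00000025723.12, chromosome 7, 80902227 to 80905076), the gene of the bombesin-like peptide neuromedin B, had 0.70 and 1.97 TPM, from 14 and 32 counts. In the gene table it is the one gene of the set that crossed 1 TPM between the libraries, while in the alignment-free table it had 2.70 and 4.29 TPM and *Tac1* crossed instead, at 1.61 and 0.870 TPM. *Tac1* (ENSMUSG00000061762.12, chromosome 6, 7554879 to 7565834), which encodes substance P and neurokinin A, had 0.61 and 0.38 TPM, from 21 and 8 counts. *Vip* (ENSMUSG00000019772.5, chromosome 10, 5639218 to 5647617), the gene of vasoactive intestinal peptide, had 0.14 and 0.16 TPM, from 7 counts in each. The main transcript of *Tac1* was that of the beta form in replicate 1, with 19.1 counts, and that of the gamma form in replicate 2, with 4.08 counts, which is too few reads to compare forms.

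The other genes with enough reads for transcript shares differed in how far the tables agreed. *Penk* has the transcripts Penk-201 and Penk-202, the latter annotated without the end of its coding sequence. Penk-201 took 81.1% and 84.0% of the gene's TPM in the alignment-based table and 100% in both libraries of the alignment-free table, which listed Penk-202 at 0. Adm-201, the coding transcript of *Adm*, took 97.7% and 94.6% in the alignment-based table but 77.0% and 75.5% in the alignment-free table. The rest there went to Adm-202, a short transcript of 376 bases annotated as a retained intron, on 11.0 and 11.2 estimated counts. *Gal* gave much the same share by both, with 92.4% and 95.4% for Gal-202 in the alignment-based table and 94.4% and 95.6% in the other. The shift between tables was therefore in opposite directions for *Penk* and for *Cartpt* and *Adm*.

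**Figure D2:**
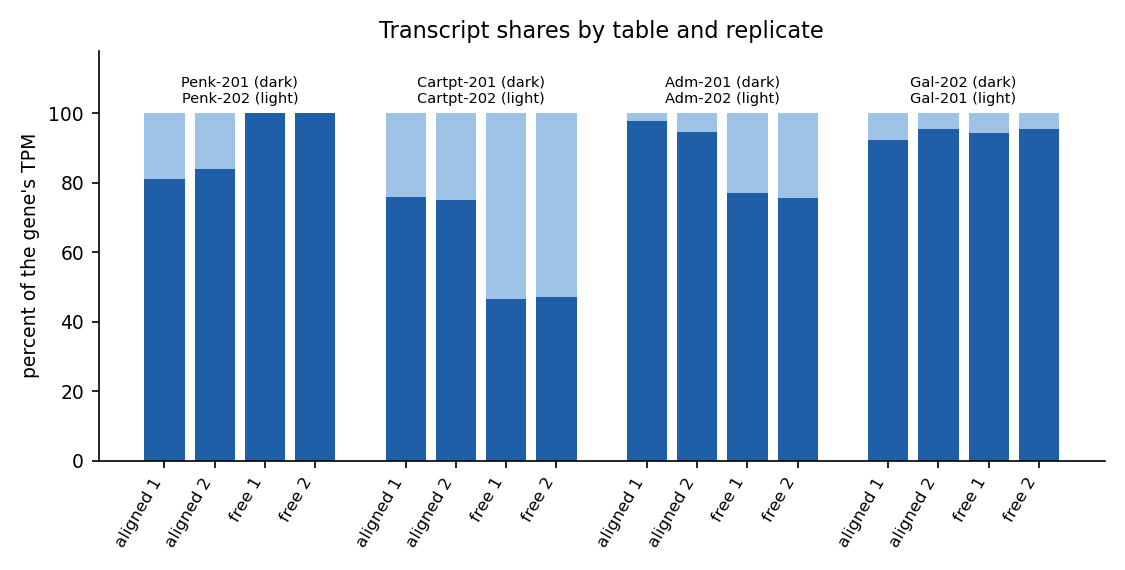
Percent of each gene's TPM taken by its transcripts, with 1 bar per library in the alignment-based table (aligned 1, aligned 2) and in the alignment-free table (free 1, free 2). Cartpt-201 falls from 75.9% and 75.0% to 46.6% and 47.2% between the tables, while Gal-202 stays above 92% in every bar.

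The 10 precursors were also scanned for the site of C-terminal amidation. A glycine codon followed by 2 codons for basic residues was found in frame in 7 of the 10 precursors, *Npy*, *Gal*, *Adm*, *Nmb*, *Tac1*, *Vip* and *Calca*. *Penk*, *Cartpt* and *Pdyn* had none. Coding sequences of other genes were not scanned, so how common such a site is among them is not known here. *Adm*, *Tac1* and *Vip* had 2 such sites each and each of these precursors is known to give rise to more than one peptide. The precursors ranged from 97 codons in *Npy* to 268 in *Penk*. Letters that spell such a site are a description and do not show that the peptide was made.

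**Figure D3:**
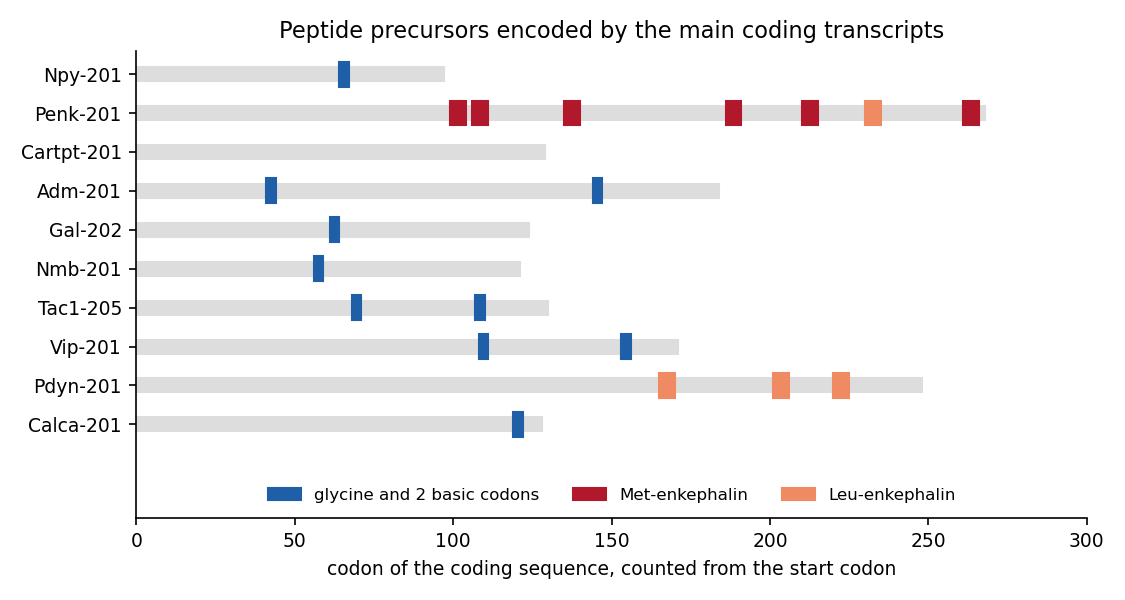
Map of the precursors encoded by the main coding transcript of each gene, in codons from the start codon; grey bars are the coding sequences, blue marks a glycine followed by 2 basic codons, and red and orange mark Met- and Leu-enkephalin copies. Enkephalin copies were searched for in *Penk* and *Pdyn* only. Penk-201 carries 7 enkephalin copies and no blue mark, while 7 other precursors carry 1 or 2 blue marks.

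The processing list holds convertases, carboxypeptidases and the amidating enzyme, with helper and inhibitor proteins and peptidases that act on finished peptides. All 20 of its genes were at 1 TPM or more, with a median of 13.5 TPM. *Cpe*, the carboxypeptidase that trims basic residues, stood at 190.1 TPM in replicate 1 and at 183 TPM in replicate 2. *Pam*, the amidating enzyme that acts on the sites above, had 115 and 110 TPM. *Ece1*, the endothelin-converting enzyme, had 99.6 and 107 TPM, and the lysosomal and granule protease gene *Ctsl* 75.5 and 97.8 TPM. The convertases of the regulated pathway were lower, with *Pcsk1* at 5.27 and 4.49 TPM and *Pcsk2* at 2.61 and 1.95 TPM, against 47.7 and 48.6 TPM for *Furin*, the convertase of the constitutive pathway. Their values did not overlap those of *Furin* in either library. Between the libraries (the exact binomial test described next), 5 of the 20 were higher and 6 lower in replicate 2 by adjusted p, and 1 also passed 2-fold, *Qpct*, the gene of glutaminyl cyclase, at 3.17 and 7.12 TPM. Of all genes tested, 15.9% were higher and 17.6% lower by adjusted p, and 3.98% also passed 2-fold. *Pcsk1*, *Pcsk2*, *Cpe* and *Pam* were among the 6 that were lower, with log2 ratios of -0.38, -0.51, -0.15 and -0.18. *Mme* at -0.30 and *Dpp4* at -0.41 were the others. Besides *Qpct*, those higher were the convertases *Pcsk4* at 0.90 and *Pcsk6* at 0.35, *Ctsl* at 0.21 and the carboxypeptidase *Cpd* at 0.10. Over the 20 genes the median was -0.010, with 10 above 0 and 10 below.

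The libraries were compared gene by gene to see which differences exceeded counting error. An exact binomial test set each gene's counts in replicate 2 against replicate 1, with library sizes from edgeR's TMM and Benjamini-Hochberg adjustment over 18160 genes. It compares these libraries and not conditions. Of the 10 genes, 6 had enough counts to be tested, and *Tac1*, *Vip*, *Pdyn* and *Calca* did not. Past an adjusted p of 0.05 and 2-fold there was 1 gene, *Nmb*, beside 3.98% of all genes tested, or 3.38% counting only those higher in replicate 2, as *Nmb* was. By adjusted p alone there were 4, with 3 lower and 1 higher in replicate 2, beside 33.5% of all genes, 17.6% lower and 15.9% higher.

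*Npy* differed most clearly, with a log2 ratio of replicate 2 over replicate 1 of -0.40 (counting interval -0.46 to -0.34, adjusted p = 1.27e-36 in the exact binomial test). *Cartpt* followed with -0.35 (-0.57 to -0.14, adjusted p = 0.00526) and *Penk* with -0.18 (-0.32 to -0.047, adjusted p = 0.0270). The call for *Penk* ended with library sizes from total counts (adjusted p = 0.0757) or spike-ins (adjusted p = 0.0738). *Adm* at -0.18 (adjusted p = 0.194) and *Gal* at -0.046 (adjusted p = 0.982) did not pass. *Nmb* was higher in replicate 2 at 1.22 (0.30 to 2.27, adjusted p = 0.0257), from 14 and 32 counts. In the alignment-free table *Nmb* had 14 and 24 counts, and its ratio of 0.79 did not pass (adjusted p = 0.248). In the alignment-based table its surplus in replicate 2 lay in Nmb-202 with 8.83 counts and in the retained intron transcript Nmb-203 with 8.40 counts, both at 0 in replicate 1, while Nmb-201 had 14 and 14.8 counts. The alignment-free table listed Nmb-202 at 0 in both libraries. From replicate 1 to replicate 2, Nmb-203 fell there from 5.11 to 1.04 counts. Nmb-201 rose from 4.60 to 13.9 counts and Nmb-204, also a retained intron transcript, from 4.29 to 9.11. The tables thus placed the surplus in different transcripts. *Nmb* overlaps *Sec11a*, a signal peptidase gene at 41.6 and 40.4 TPM, over 188 bases of the same strand, so reads there can be assigned to either, and the part of this overlap in the difference was not tested. Among untested genes *Tac1* was at 0.397 times its replicate 1 level in replicate 2, with a counting interval of 0.152 to 0.933. When all 28783 genes with a count were tested, *Tac1* did not pass (adjusted p = 0.114 in the exact binomial test).

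Other genes moved with these differences. All 12 chromaffin cell markers were lower in replicate 2, 10 of them by adjusted p, with log2 ratios from -0.57 to -0.035, a median of -0.25 and summed levels of 2505 and 2271 TPM. The 7 cortex markers were also all lower, with a median of -0.25. Liver markers went the other way, all 6 of them past the test and 2-fold, with a median of 4.71 and summed levels of 161 TPM in replicate 1 and 4737 TPM in replicate 2. The 4 skeletal muscle markers were higher in replicate 2 by adjusted p, with a median of 0.83. Of the 4 kidney markers tested 3 were lower in replicate 2 past the test and 2-fold, with a median over the 4 of -1.52. The endothelial markers, which bear on *Adm*, split into 3 higher and 1 lower by adjusted p of 6, with a median of 0.10. The part of any of these in the differences of the neuropeptide genes was not tested. With library sizes set so that the chromaffin markers had a median ratio of 0, a scaling chosen after the data were seen, *Npy* was at -0.15 (adjusted p = 3.60e-06 in the exact binomial test, which covers counting error only). The ratios of *Npy*, *Cartpt* and *Penk* lay within the range of the chromaffin markers, and also within that of the cortex markers (-0.60 to -0.15). Those of *Adm* and *Gal*, which did not pass, lay within the chromaffin range too. On the chromaffin marker scale *Cartpt* was at -0.10 (adjusted p = 0.444) and *Penk* at 0.064 (adjusted p = 0.451), and neither passed.

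**Figure D4:**
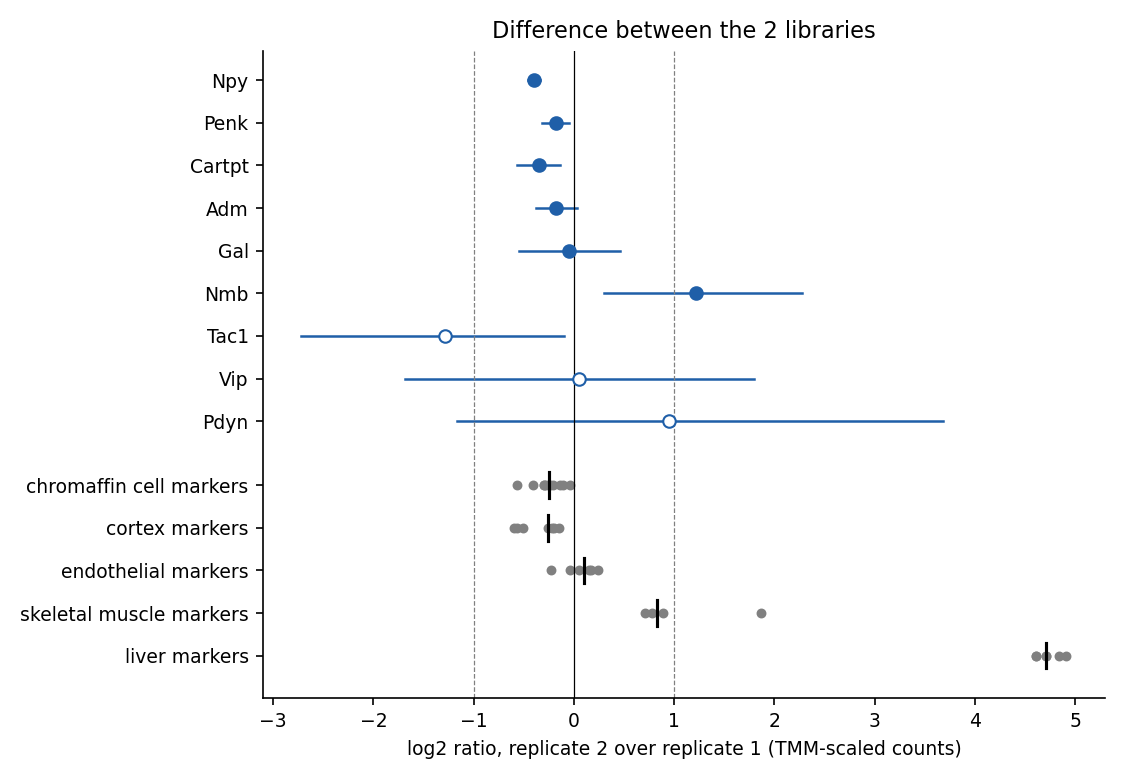
Log2 ratio of replicate 2 over replicate 1 from TMM-scaled counts; blue points are neuropeptide genes with exact 95% counting intervals (open where the gene was not tested, *Calca* left out at 2 and 3 counts), grey points are marker genes with their median as a bar, and dashed lines mark 2-fold. *Npy*, *Penk* and *Cartpt* lie left of 0 with the chromaffin and cortex markers, and the liver markers lie near 4.7.

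Genes for the receptors of these peptides were mostly low. Of the 25 on the list, 8 were at 1 TPM or more, with a median of 0.295 TPM. The highest belonged to adrenomedullin and CGRP. *Ramp2*, an accessory protein that gives the calcitonin receptor-like receptor its adrenomedullin specificity, stood at 24.6 TPM in replicate 1 and at 34.04 TPM in replicate 2. The receptor gene itself, *Calcrl*, had 10.4 and 10.7 TPM, and *Crcp*, a component linked to CGRP receptors and to RNA polymerase III, 13.4 and 14.6 TPM. *Ackr3*, a scavenging receptor that also binds adrenomedullin and opioid peptides, had 8.77 and 6.90 TPM. *Ramp3* and *Ramp1* stood at 4.95 ± 0.438 and 4.00 ± 0.453 TPM (SD, n = 2). Transcripts for both the ligand adrenomedullin and its receptor parts were therefore found in each library. Endothelial cells, which make these receptors, had all 6 markers at 1 TPM or more, and their part in these levels was not tested.

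Receptors for the other peptides were fewer. *Tacr2*, the receptor for neurokinin A, stood at 8.48 TPM in replicate 1 and at 6.62 TPM in replicate 2, above its own ligand gene *Tac1* in both, while *Tacr1* and *Tacr3* were at 0.03 TPM or less. *Npy2r*, a receptor for neuropeptide Y, had 3.62 and 3.00 TPM, and *Npy1r* 0.65 and 0.58 TPM. The opioid receptor genes *Oprd1*, *Oprm1* and *Oprk1* had means of 0.215, 0.165 and 0.160 TPM. *Galr1*, *Galr2*, *Galr3* and *Nmbr* were below 1 TPM too. Of the 14 receptor genes tested, 1 passed the test and 2-fold between libraries, beside 3.98% of all genes tested. This was *Vipr1*, a receptor for vasoactive intestinal peptide, at 0.24 and 0.62 TPM. It was higher in the library with the higher liver markers, and their part in it was not tested. *Ackr3*, *Tacr2* and *Npy2r* were lower in replicate 2 by adjusted p alone, with log2 ratios of -0.38, -0.45 and -0.42 (adjusted p = 1.74e-05, 8.50e-06 and 0.00146 in the exact binomial test), and *Ramp2*, *Vipr1* and *Vipr2* were higher. Of all genes tested, 17.6% were lower and 15.9% higher by adjusted p alone.

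**Figure D5:**
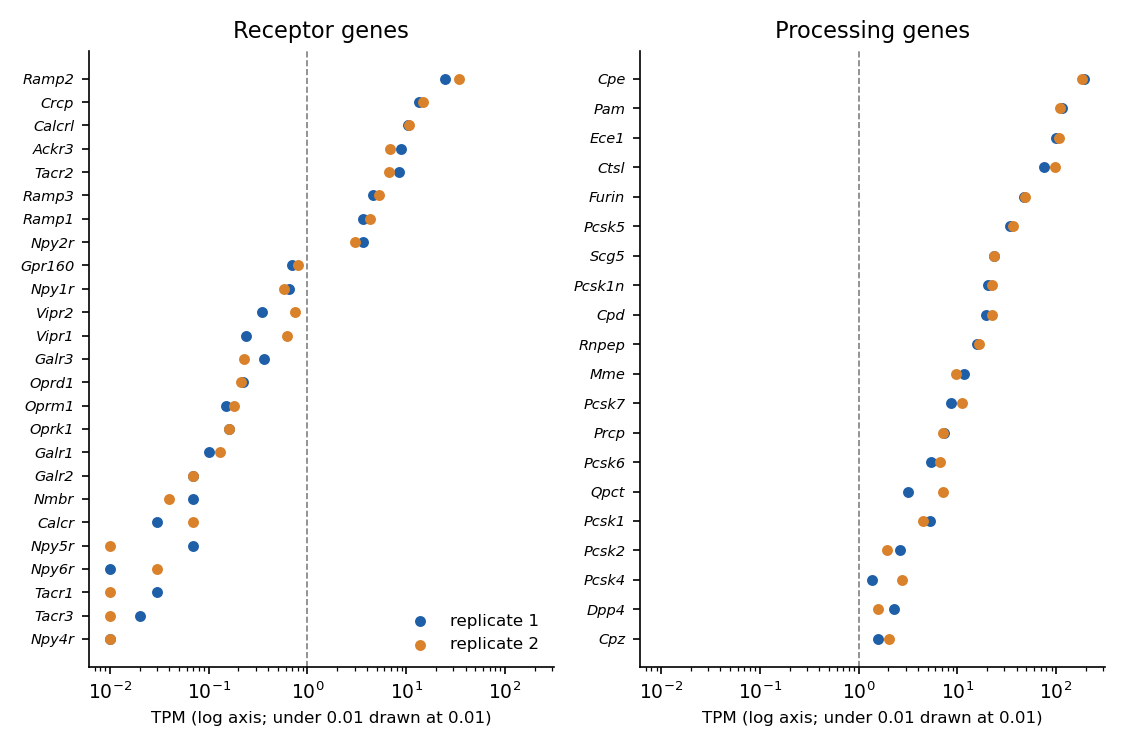
TPM in each library, on a log axis, of the 25 receptor genes (left) and the 20 processing genes (right), with the dashed line at 1 TPM. All processing genes lie right of the line in both libraries, and 8 receptor genes do.

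Most other peptide precursors were close to absent from the counts. Of 40 further precursor genes in the gene table, 2 were at a mean of 1 TPM or more and 16 had 0 counts in both libraries, with a median of 0.0400 TPM. Of these 4 had enough counts for the binomial test between libraries, and none passed its adjusted p. These counts depend on the table: 5 genes were at 1 TPM or more in the alignment-free table, and 10 were at 0 in both kinds of table. *Oxt*, the oxytocin gene, had 0 counts in the gene table but 0.856 and 1.08 TPM in the alignment-free one, and was picked after its values were seen. *Npff*, the gene of neuropeptide FF, stood at 1.86 TPM in replicate 1 and at 2.08 TPM in replicate 2, and *Npb*, the gene of neuropeptide B, 1.34 and 0.85 TPM. *Cort* and *Gnrh1* came next at 0.810 ± 0.410 and 0.675 ± 0.191 TPM (SD, n = 2). *Npy*, *Penk*, *Cartpt*, *Adm* and *Gal* each exceeded all 40 in both libraries of the gene table. Neuronal markers bear on *Vip* and *Tac1*, genes that nerve fibres and ganglion cells also use. Of the 8 neuronal markers 5 were at 1 TPM or more, with summed levels of 35.6 and 46.4 TPM, and the cholinergic genes *Slc18a3*, *Chat* and *Slc5a7* were at 0.12 TPM or less. Their part in these levels was not tested.

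The promoters were searched for the cyclic AMP response element, through which several of these genes are known to respond to nerve activity. RefSeq windows of 300 bases around the start site, build GRCm38.p6, were given for 9 of the 10 genes and not for *Penk*. On both strands the full element TGACGTCA was found in 1 gene, *Cartpt*, and in 1.79% of 32851 windows of this length over all genes. Its core TGACG, which the full element contains, was found in 5 genes, *Calca*, *Cartpt*, *Gal*, *Tac1* and *Vip*, and in 20.8% of all windows. These include the low *Vip*, *Tac1* and *Calca* as well as *Cartpt*, and leave out *Npy*, the highest gene. The *Cartpt* and *Vip* matches are shown with the match in capitals, at positions -112 and -79 from the start site. The *Cartpt* match lies inside the longer first exon of Cartpt-202. No match says only that these letters are not in this window.
Cartpt, chr13:99900778-99900805, minus strand: cggcgggcatTGACGTCAaacggcagcg
Vip, chr10:5639129-5639153, plus strand: atcactactgTGACGtctttcgggg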

How the data were processed

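For each library 3 tables were used, which the authors made against mm10 and GENCODE M21, as a text deposited beside them states. The gene table and a transcript table rest on a transcriptome alignment and hold expected counts, TPM and, per transcript, the percent of the gene's TPM, as deposited by the authors. The alignment-free transcript table holds estimated counts and TPM, per the file headers. Programs: not given in the sources used here. Protein-coding genes hold 36.6% and 39.2% of the TPM deposited by the authors. The rest was not divided by gene type. Whether counting used strand is not given.

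Counts were rounded to whole numbers. Spike-ins (1.06% of counts) and 26248 rows with a number for a gene name (3 and 2 counts) were left out. edgeR 4.0.16 (R 4.3.3) filterByExpr kept 18160 genes and TMM set library sizes. Each gene was compared by an exact two-sided binomial test (scipy 1.17.1), adjusted by Benjamini-Hochberg, with calls at 0.05 and over 2-fold, and log2 ratios with a prior count of 0.5. The test was tested on simulated data. Intervals are exact 95% (Clopper-Pearson for ratios, Poisson for counts). Alternatives were other tables, scalings (DESeq2 1.42.0), filters, thresholds and single libraries. Coding sequences come from GENCODE M21 transcripts, translated with Biopython 1.88. The main coding transcript is the complete one of highest TPM. Named genes are the 10 members, the 4 highest of each list and reference genes; further list genes were named after their values were seen. Members and lists were chosen with earlier results of these data known.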

Additional observations from a re-analysis of the deposited data

How the results depend on the processing

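With library sizes set by DESeq2 size factors, total counts or spike-ins, and without the filter on low counts, *Nmb* was the 1 gene past the test and 2-fold. With alignment-free counts 0 genes were, with 3 past the adjusted p alone, and *Nmb* fell short there. Dropping the 2-fold rule gave 4 genes, and with total counts or spike-ins 3 passed the adjusted p, without *Penk*. Scaling to the chromaffin markers turned the sign for *Gal* (0.20), *Adm* (0.070) and *Penk* (0.064), none of which passed (adjusted p = 0.559, 0.609 and 0.451 in the exact binomial test). It adds nearly one constant to all genes, and moved the median log2 ratio from -0.18 to 0.067. Genes called present were 10 at a threshold of 0.1 TPM. The median was 5.10 TPM in the alignment-free table, 5.95 TPM when TPM was rescaled to protein-coding genes, and 12.1 TPM over genes at 1 TPM or more. The share of *Npy* in the alignment-free table was 87.4%. Main transcript shares there were 100% for Penk-201, 46.9% for Cartpt-201 and 76.3% for Adm-201. From 1 library alone, 5 to 6 genes were at 1 TPM or more and the median ranged from 1.93 to 2.60 TPM, while the share of Nmb-201 was 100% in replicate 1 and 41.6% in replicate 2. No paired analysis was possible because the series holds 1 group. Reads of the CAST/EiJ allele were quantified against the mm10 reference, and the effect of this was not tested.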
